A study of Homo sapiens with 6 samples.

Results

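DNA replication and S-phase genes were followed across 6 arrays of RWPE-1 cells that did or did not overexpress the miR-183 family cluster. The set was a list of 44 genes, chosen with earlier results of these data known. Some license and fire replication origins, run the replication fork, supply nucleotides or repair newly made DNA. Others regulate and follow S phase as E2F transcription factors and chromatin proteins. Of the 44 listed genes, 43 were measured, out of 14884 genes with an annotated symbol, and *ATAD2* was not analysed here. A gene counts as measured where its symbol stood in the annotation used. Of the 53617 probe clusters 37519 carried no symbol there, so a gene not measured here may still have probes on the array. Where several probe clusters of the array carried 1 symbol, as for *CLSPN* and *GINS4* among the measured members, the cluster with the highest mean over the 6 arrays was used.

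RWPE-1 is a benign human prostate epithelial line immortalised with a human papillomavirus. RWPE1-183FC cells carried a lentivirus holding the full genomic cluster that encodes miR-183, miR-96 and miR-182, and RWPE1-CTRL cells carried the same kind of lentivirus with scrambled RNA. Both were polyclonal populations sorted for GFP, the tracer of the vector, and both grew in keratinocyte serum-free medium to a subconfluent density before RNA was isolated. Each group had 3 arrays, called biological triplicates in the study's methods, and p-values measure the spread between these samples only. No growth rate, cell cycle profile or dish record per array was used here.

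In dividing cells, origins are licensed in G1 when the origin recognition complex, CDC6 and CDT1 load the MCM2-7 helicase on DNA. At the start of S phase the kinase CDC7, the factors CDC45 and GINS, and MCM10 turn the loaded helicase into a moving fork. Many of the genes involved are transcribed through E2F factors, which are held back by the retinoblastoma protein until cyclin-dependent kinases release them. E2F1, E2F2 and E2F3 act as activators, whereas E2F7 and E2F8 are repressors that are themselves made in S phase.

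The 3 overexpressed miRNAs are shown because they define the RWPE1-183FC group. Their 5p mature sequences are given 5′ to 3′ from RefSeq (GRCh38.p14), on the minus strand of chromosome 7, with the seed, bases 2 to 8, in capitals. The 3 seeds are similar but not identical. Those of miR-183-5p and miR-96-5p differ only at base 2, and those of miR-96-5p and miR-182-5p only at base 8.
miR-183-5p, chr7:129774967-129774988: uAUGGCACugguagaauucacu
miR-96-5p, chr7:129774739-129774761: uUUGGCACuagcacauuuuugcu
miR-182-5p, chr7:129770447-129770470: uUUGGCAAugguagaacucacacu

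Promoter sequence of the members is shown because it holds the E2F sites through which many S-phase genes are read. RefSeq promoter windows, from 250 bases before to 50 bases after each transcription start, were found for 38 of the 44 listed genes. An E2F site was taken as TTTCGCGC, TTTCCCGC, TTTGGCGC or TTTGCCGC on either strand. Such a site stood in the windows of 25 of the 38 members (65.8%), against 3.99% of 27305 genes with a window. Stretches of 7 members are given on the strand of the gene, 5′ to 3′, with the E2F sites in capitals, and sites on opposite strands overlap in *MCM6* and *TIPIN*. They are *E2F1* and, of the 16 members with a site wholly before the start, those with the largest fall in replicate 2, described below.
UHRF1, chr19:4909467-4909500, plus strand: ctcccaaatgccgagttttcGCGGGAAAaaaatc
MCM6, chr2:135876502-135876615, minus strand: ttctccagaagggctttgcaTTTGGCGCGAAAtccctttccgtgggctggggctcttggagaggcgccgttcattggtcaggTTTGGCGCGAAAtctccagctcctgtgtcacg
MCM3, chr6:52284889-52284936, minus strand: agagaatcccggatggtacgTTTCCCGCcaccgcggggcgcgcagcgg
DTL, chr1:212035720-212035747, plus strand: atcagagagcgtgacgtcagTTTGGCGC
TIPIN, chr15:66356720-66356771, minus strand: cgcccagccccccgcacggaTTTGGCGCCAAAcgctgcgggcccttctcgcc
UNG, chr12:109098089-109098136, plus strand: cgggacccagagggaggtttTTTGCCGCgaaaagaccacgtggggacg
E2F1, chr20:33686386-33686438, minus strand: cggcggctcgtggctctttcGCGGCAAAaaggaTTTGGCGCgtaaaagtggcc

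A match is a description of the letters and was not tested as a binding site. The same windows held the CCAAT box, bound by NF-Y, in 68.4% of the members with a window and in 39.7% of all genes. The element TTTGAA or TTCGAA, the core of the cell cycle homology region of mitotic promoters, was held by 18.4% of the members and 19.5% of all genes. Among 21 mitotic genes set beside the members the order was the other way round, with the E2F site in 9.52% and the homology element in 81%. Promoter letters were not used to choose the members, and these shares were not tested.

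All values below are log2 expression values after RMA (robust multi-array average), so a difference of 1 is a doubling. Any 2 of the 6 arrays correlated at 0.974 to 0.988 over the measured genes. The median of all clusters lay between 3.82 and 3.86 on every array, and all 43 members lay above it on all 6 arrays. The overexpressed transcripts bore out the labels for 2 of 3 probe clusters. *MIR96* read 2.46, 2.67 and 1.92 in RWPE1-CTRL replicates 1, 2 and 3 and 5.19, 5.54 and 5.93 in RWPE1-183FC (adjusted p = 1.9e-27, limma). *MIR183* read 3.03, 2.27 and 2.31 against 4.05, 4.42 and 4.55 (adjusted p = 2.5e-10, limma). These p-values come from the fit after the filter described below, and they depend on it. In the limma fit over all genes the adjusted p was 0.0017 for *MIR96* and 0.035 for *MIR183*. *MIR182* read 2.67, 2.90 and 3.24 against 3.28, 3.11 and 3.44, groups that overlapped. All 6 of these values lay below the median of all clusters, so the overlap does not show that miR-182 was unchanged. By RT-qPCR, the paper reports higher mature levels of the overexpressed miRNAs in the transduced cells than in their control.

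To ask whether miR-183 cluster overexpression changed the replication genes, RWPE1-183FC was compared with RWPE1-CTRL. No member was called higher or lower. The median difference of the 43 members was -0.01, against 0.01 for all genes, with 21 members higher and 22 lower on average. The differences ran from -0.42 for the histone chaperone *ASF1B* to 0.39 for the repressor *E2F7*. A gene was called when its false discovery rate was under 0.2 and its fold change over 1.5, after genes in the lowest 20 percent by median or by variance were removed. By this rule 0 of the 40 members that passed the filter were called, beside 90 of 9583 genes (0.939%). Their smallest adjusted p was 0.999 (limma). At an unadjusted p under 0.05 there were again 0 of the 40 members, beside 454 of the 9583 genes.

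The filter removed *CDC7*, *TIMELESS* and *CHEK1*, so the fit was also made over all 14884 genes. It called 36 genes (0.242%) and 0 of the 43 members. The 3 RWPE1-183FC arrays lay wholly outside the range of the 3 RWPE1-CTRL arrays for 1448 genes (9.73%) and for 0 members. Every member thus overlapped between the groups. Replicate 2 was the lowest array of both groups for 36 of the 43 members, as described below. This widened both ranges and made non-overlap hard to reach, so the count of 0 says little about a group difference. The median standard error of a member was 0.226, beside 0.169 for all genes. The 95% interval of the difference lay within 1.5-fold either way for 17 of the 43 members. For the other members a change of 1.5-fold was not excluded by these arrays.

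Taking arrays of the same replicate number as pairs narrowed these errors but added no call. The labels name no such pairs, and the pairing was taken from the data. The median standard error of the members fell to 0.138, and the interval lay within 1.5-fold for 38 of the 43. The paired fit called 162 of the 9583 genes (1.69%) and 0 of the 40 members, with a smallest adjusted p of 0.405. *ASF1B*, *E2F7* and *PCNA* had unadjusted p of 0.0253, 0.0241 and 0.0341 in the paired limma fit over all genes, and adjusted p of 0.511, 0.510 and 0.551. They were the only members with an unadjusted p under 0.05, 3 of 43, beside 1241 of 14884 genes. The difference had 1 sign in all 3 pairs for 13 of the 43 members (30.2%), beside 29.3% of all genes. Of these 13, 4 were higher in RWPE1-183FC in every pair (*PCNA*, *UNG*, *E2F7* and *UHRF1*) and 9 were lower.

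**Figure D1:**
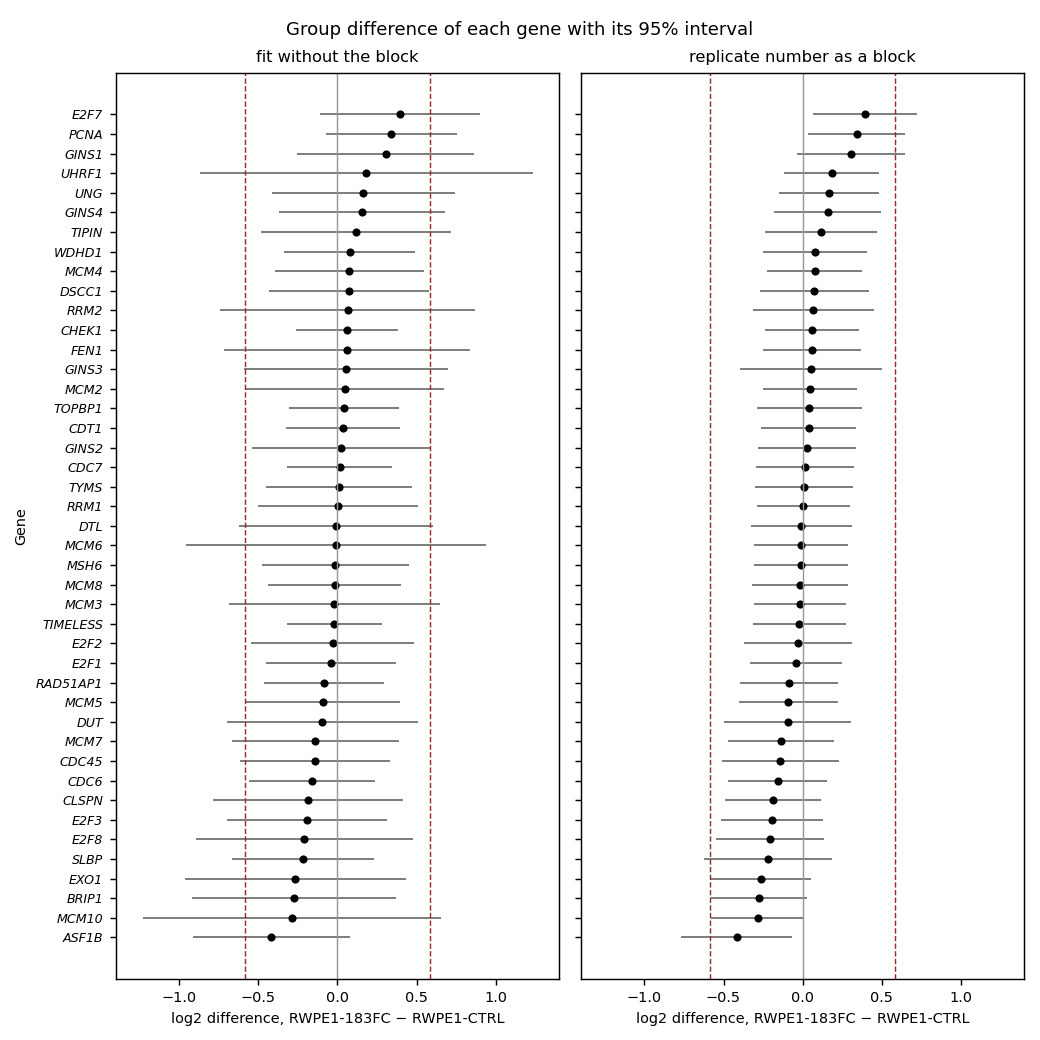
Log2 difference of each of the 43 measured genes, RWPE1-183FC minus RWPE1-CTRL (n = 3 arrays each), with its 95% limma interval, from the fit without the block (left) and with the replicate number as a block (right). The dashed lines mark a 1.5-fold change. Left, every interval holds 0 and 17 lie between the dashed lines. Right, 38 do.

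Among the arrays of each group, replicate 2 was low in the members, and this difference was larger than that between the groups. The median of the 43 members was 7.64, 7.11 and 7.65 in RWPE1-CTRL replicates 1, 2 and 3 and 7.64, 7.08 and 7.86 in RWPE1-183FC. Over the same arrays the median of all genes stayed between 5.0 and 5.09. The replicate 2 arrays were known from earlier results to stand apart, so these values are given as a description with no test.

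Relative to the mean of replicates 1 and 3, replicate 2 was lower for 42 of the 43 members, averaged over the groups. The median of this difference was -0.53, or 1.44-fold, beside 0.01 for all genes. It was -0.58 within RWPE1-CTRL and -0.50 within RWPE1-183FC. For comparison, replicates 1 and 3 differed from each other by a median of 0.222 in RWPE1-CTRL and 0.155 in RWPE1-183FC, in either direction. Replicate 2 was the lowest array of its group in both groups for 36 of the 43 members (83.7%), beside 18.4% of all genes. It was the highest in both for 1 member, *E2F7* (2.33%), beside 20.1% of all genes.

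Replicate 2 was over 1.5-fold below the mean of the others in both groups for 14 members (32.6%), beside 1.44% of all genes. These were *MCM2*, *MCM3*, *MCM6*, *MCM10*, *GINS2*, *FEN1*, *CLSPN*, *TIPIN*, *RRM2*, *DTL*, *EXO1*, *BRIP1*, *E2F8* and *UHRF1*. It was over 1.5-fold above the others in both groups for 0 members, beside 1.74% of all genes. Nearest to the limit on its inner side was *GINS2*, with -0.60 and -0.78, and on its outer side *RRM1*, with -0.56 and -0.65. Across the 43 members the replicate 2 differences of the 2 groups correlated at a Pearson r of 0.723, and across all 14884 genes at 0.511. These points share their arrays and are not independent. In RNA from whole dishes, fewer cells in S phase and less RNA of these genes per cell cannot be told apart.

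**Figure D2:**
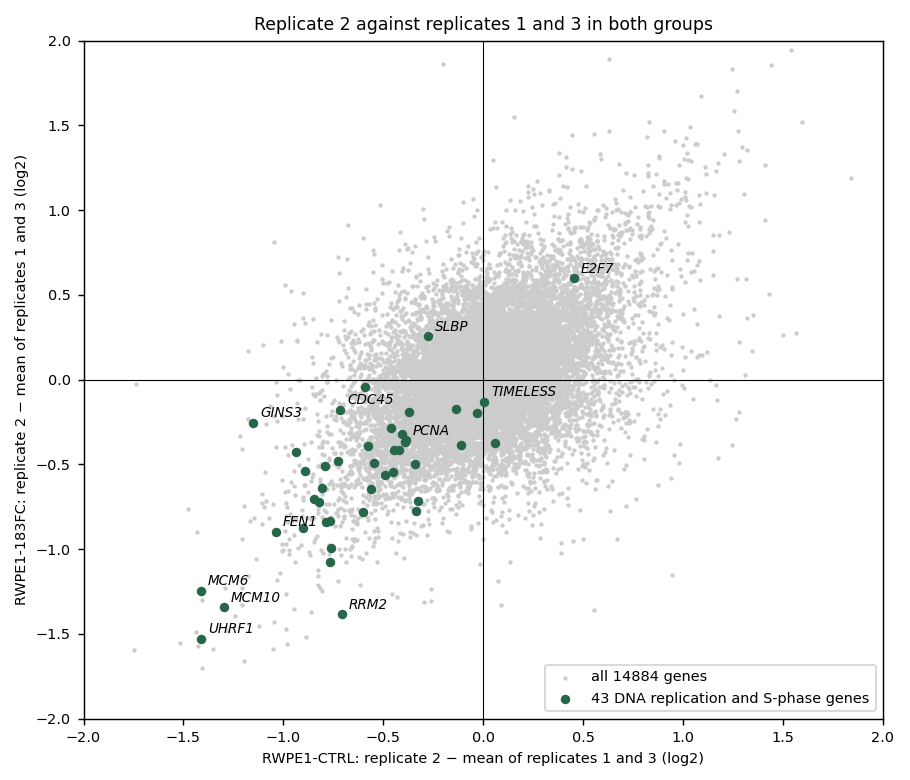
Log2 difference between replicate 2 and the mean of replicates 1 and 3, in RWPE1-CTRL (horizontal) and in RWPE1-183FC (vertical), for all 14884 genes in grey and the 43 measured members in green. 13 genes lie outside the plotted range. Most members sit in the lower left, *UHRF1*, *MCM6* and *MCM10* lowest among them, and *E2F7* sits alone in the upper right.

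Origin licensing genes were lowest in replicate 2 of both groups for 8 of 8 members, with a median of -0.57. The MCM2-7 helicase gave the largest values. *MCM6* read 8.64, 7.27 and 8.74 in RWPE1-CTRL replicates 1, 2 and 3 and 8.55, 7.38 and 8.69 in RWPE1-183FC. Replicate 2 was thus lower by 1.41 and 1.25 on the log2 scale, while each array differed from its partner in the other group by 0.10 at most. *MCM3* read 9.15, 8.28 and 9.21 against 9.11, 8.28 and 9.20, with both replicate 2 arrays at the same level. The remaining subunits *MCM2*, *MCM4*, *MCM5* and *MCM7* had replicate 2 differences of -0.80, -0.48, -0.53 and -0.60.

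The 2 licensing genes farthest apart between the groups were *CDC6* and *MCM7*. *CDC6*, the ATPase that loads the helicase, read 7.41, 7.11 and 7.62 against 7.40, 7.01 and 7.26, a difference of -0.16 ± 0.178 (SE, n = 3 per group). *MCM7* read 8.24, 7.63 and 8.47 against 8.25, 7.65 and 8.02, a difference of -0.14 ± 0.235. In both genes replicate 3 had the widest gap between the groups, and the ranges overlapped. *CDT1*, which brings the helicase to origins, had the smallest replicate 2 difference of the role, -0.28.

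Origin firing genes were lowest in replicate 2 of both groups for 7 of 8 members, with a median of -0.60. *MCM10*, which activates the helicase, read 7.45, 6.22 and 7.58 in RWPE1-CTRL and 7.15, 5.90 and 7.34 in RWPE1-183FC. Every RWPE1-183FC array was below its partner, by 0.24 to 0.31. The difference of -0.28 had a standard error of 0.421 without pairing and 0.129 with it (paired limma fit, unadjusted p = 0.0544, adjusted p = 0.617). Replicate 2 lay 1.30 and 1.34 below the others. *GINS1*, a subunit of the GINS ring, read 7.31, 6.71 and 7.68 against 7.77, 7.20 and 7.64, a difference of 0.30 ± 0.251. Replicates 1 and 2 were higher in RWPE1-183FC and replicate 3 was not.

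In some firing genes the replicate 2 difference was unlike between the groups. *GINS3* was lower in replicate 2 by 1.15 in RWPE1-CTRL and by 0.25 in RWPE1-183FC, and *CDC45* by 0.72 and 0.18. *GINS4* went the other way, with -0.34 and -0.78. *CDC7*, the kinase that starts firing, and *TOPBP1*, a scaffold of firing and of checkpoint signalling, had averages close to 0, of -0.15 and -0.16. These differences between groups rest on 1 array each and were not tested.

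Replisome and fork genes were lowest in replicate 2 of both groups for 6 of 7 members, with a median of -0.42. *FEN1*, the flap endonuclease that trims Okazaki fragments, read 6.92, 6.21 and 7.57 in RWPE1-CTRL and 7.10, 6.36 and 7.42 in RWPE1-183FC. *CLSPN*, the claspin mediator of checkpoint signals at forks, read 7.46, 6.58 and 7.34 against 7.13, 6.46 and 7.24, a group difference of -0.19 ± 0.269. In both genes the 2 replicate 2 arrays stood below the other 4.

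*PCNA*, the sliding clamp, had the largest group difference of the role. It read 9.14, 8.93 and 9.50 in RWPE1-CTRL and 9.63, 9.29 and 9.66 in RWPE1-183FC, a difference of 0.34 ± 0.185 (1.27-fold, unadjusted p = 0.0969, limma). Each RWPE1-183FC array was above its partner, but its replicate 2 lay inside the RWPE1-CTRL range. The fork protection pair parted in replicate 2. *TIPIN* was lower by 0.81 and 0.64, whereas its partner *TIMELESS* gave 0.00 and -0.13. *WDHD1*, which ties the helicase to polymerase alpha, and *DSCC1*, of a clamp loader used in cohesion, averaged -0.38 and -0.42.

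Nucleotide supply genes were lowest in replicate 2 of both groups for 4 of 4 members, with a median of -0.64. *RRM2*, the small subunit of ribonucleotide reductase whose level rises in S phase, read 7.79, 7.12 and 7.87 in RWPE1-CTRL and 7.98, 6.74 and 8.27 in RWPE1-183FC. Replicate 2 was lower by 0.71 and 1.38, the wider gap being in RWPE1-183FC, and the group difference was 0.07 ± 0.360. *RRM1*, the large subunit, gave -0.56 and -0.65 and *TYMS*, thymidylate synthase, -0.45 and -0.54. *DUT*, which keeps uracil out of DNA, read 5.86, 5.07 and 6.16 against 5.93, 5.32 and 5.55, a group difference of -0.09 ± 0.270. These were the smallest leading group differences of any role.

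Repair and checkpoint genes were lowest in replicate 2 of both groups for 6 of 8 members, with a median of -0.62. *EXO1*, the exonuclease of mismatch repair and end resection, read 7.53, 6.70 and 7.39 in RWPE1-CTRL and 7.27, 6.22 and 7.34 in RWPE1-183FC. *BRIP1*, the helicase partner of BRCA1, read 7.94, 7.20 and 8.04 against 7.54, 6.89 and 7.92. Both were lower in RWPE1-183FC in all 3 pairs, by averages of -0.26 ± 0.312 and -0.28 ± 0.287, which did not pass the test. *DTL*, the CRL4 substrate receptor that acts on CDT1 in S phase, and *UNG*, the uracil glycosylase, had average replicate 2 differences of -0.78 and -0.71. *MSH6* of mismatch recognition and the helicase *MCM8* gave -0.52 and -0.42. The checkpoint kinase *CHEK1* gave -0.11 and was 1 of the 2 members of this role not lowest in both groups.

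The E2F factors held the single member that went the other way. *E2F7* read 7.77, 7.98 and 7.28 in RWPE1-CTRL and 7.88, 8.47 and 7.86 in RWPE1-183FC, so that replicate 2 was the highest array of each group, by 0.45 and 0.60 over the others. *E2F8*, the other atypical repressor, read 7.54, 6.59 and 7.17 against 7.15, 6.23 and 7.30, with replicate 2 the lowest of each group. The 2 repressors thus differed in opposite directions between replicates. Between the groups *E2F7* differed by 0.39 ± 0.226 (1.31-fold, unadjusted p = 0.114, limma) and *E2F8* by -0.21 ± 0.306. The activators *E2F1*, *E2F2* and *E2F3* were each lowest in replicate 2 of both groups, with averages of -0.43, -0.52 and -0.37.

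Chromatin proteins of S phase held both the largest and the smallest replicate 2 difference. *UHRF1*, which brings the methyltransferase DNMT1 to newly replicated DNA, read 8.02, 6.71 and 8.23 in RWPE1-CTRL and 8.14, 6.82 and 8.54 in RWPE1-183FC. Its average difference of -1.47, or 2.77-fold, ranked 10 from the lowest of 14884 genes. *SLBP*, which binds the stem loop of histone mRNA, read 7.93, 7.66 and 7.94 against 7.19, 7.80 and 7.89. Its replicate 2 was lower in RWPE1-CTRL and higher in RWPE1-183FC, an average of -0.01. The group difference of *SLBP*, -0.22 ± 0.20, was largely set by replicate 1 of RWPE1-183FC.

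*ASF1B*, a chaperone that hands histones to newly made DNA, had the largest group difference of the 43 members over all 6 arrays. It read 6.72, 6.40 and 7.27 in RWPE1-CTRL and 6.19, 6.35 and 6.60 in RWPE1-183FC, a difference of -0.42 ± 0.222 (0.749-fold, unadjusted p = 0.0905, limma). All 3 pairs were lower in RWPE1-183FC, by 0.05 in replicate 2 and by 0.53 and 0.67 in replicates 1 and 3. The highest RWPE1-183FC array still lay inside the RWPE1-CTRL range. After adjustment over all genes it did not pass, and without RWPE1-CTRL replicate 3 the difference was -0.18.

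**Figure D3:**
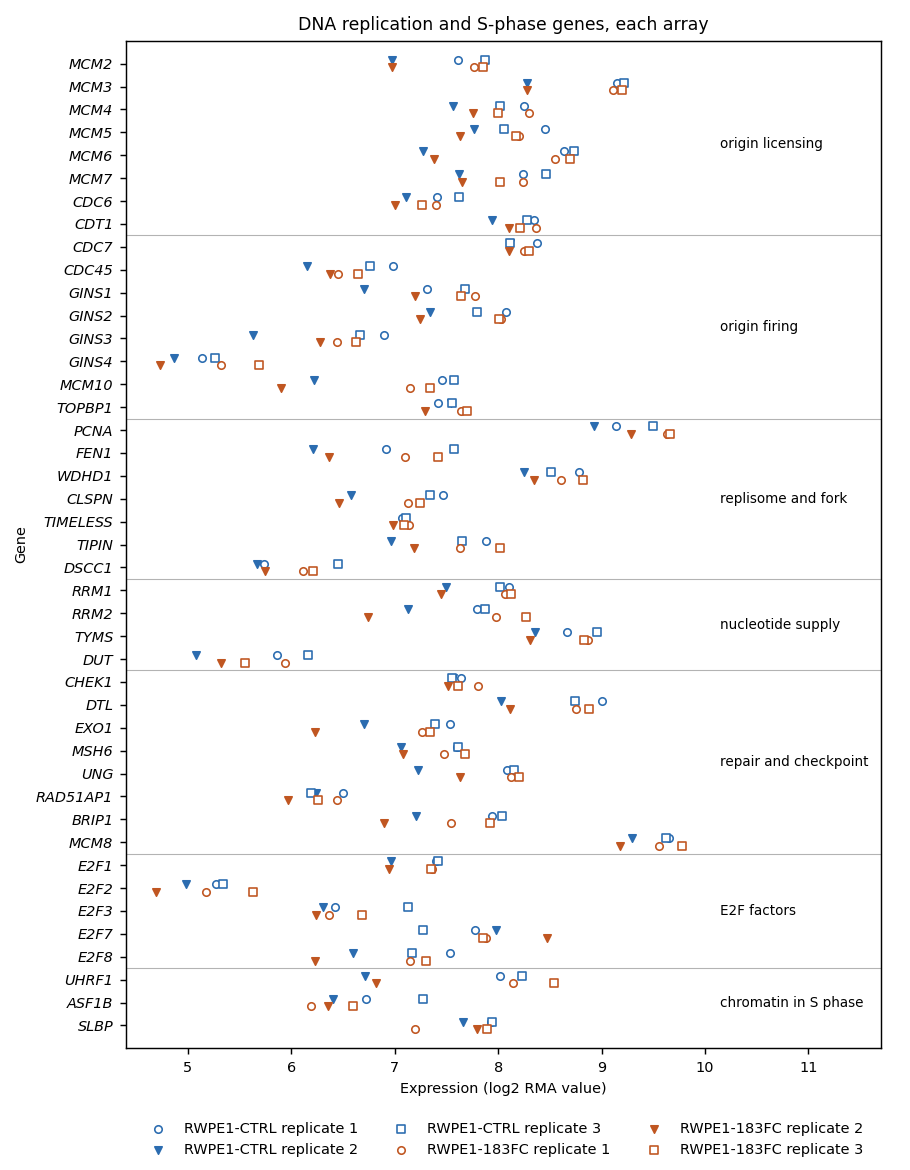
Log2 RMA value of each of the 43 measured genes on each of the 6 arrays, ordered by role, with RWPE1-CTRL in blue and RWPE1-183FC in orange and replicate 2 as filled triangles. The triangle lies to the left of the open symbols of its own colour in both groups for 36 genes and to the right in both for *E2F7*.

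The E2F site in the promoter window was set beside these values as a description. Of the 8 members with the largest replicate 2 difference, *UHRF1*, *MCM6*, *EXO1* and *MCM3* held a site, *MCM10*, *RRM2* and *FEN1* did not, and *E2F8* had no window in the table. *E2F7*, the member that was higher in replicate 2, held none. Of the 5 with the smallest difference, *CDC7* and *TOPBP1* held a site and *SLBP*, *TIMELESS* and *CHEK1* did not. By the sequences searched, members with and without a site stood at both ends of the order, and a link between site and order was not tested.

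Other cell cycle lists were compared in the same way. Of 43 further replication factors, 9 were measured, the rest not being found by symbol in the annotation used, and 0 were called between the groups. Of 28 G1/S regulators 18 were measured, and of 25 mitotic genes 21, again with 0 called in each. The groups did not overlap for 1 of the 9 further replication factors, 2 of the 18 G1/S regulators and 1 of the 21 mitotic genes. The share over all genes was 9.73%. The 2 genes of each list with the largest group difference are given. *MCMBP*, which binds the MCM helicase, read 9.05, 8.77 and 9.12 in RWPE1-CTRL and 8.67, 8.49 and 8.71 in RWPE1-183FC, without overlap. Its difference was -0.36 ± 0.154 (adjusted p = 0.999, limma). The helicase and nuclease *DNA2* differed by -0.14 ± 0.330, with overlap.

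Among the G1/S regulators *CDKN2A*, which encodes the kinase inhibitor p16, read 6.80, 6.63 and 6.34 against 7.19, 6.94 and 6.99. Its arrays did not overlap, with a difference of 0.45 ± 0.164. *CDK4*, which the filter removed, was the other regulator without overlap, with a difference of 0.14. *MYC*, the growth transcription factor, read 9.01, 8.84 and 9.35 against 9.59, 9.07 and 9.66, a difference of 0.38 ± 0.201. Neither *CDKN2A* nor *MYC* passed the test, with an adjusted p of 0.999 for both (limma).

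The mitotic kinesin *KIF11* read 8.98, 8.37 and 9.25 in RWPE1-CTRL and 8.46, 7.78 and 8.82 in RWPE1-183FC, a difference of -0.52 ± 0.288. Its adjusted p was 0.818, or 0.180 with the replicate block (limma), and its fold change stayed short of 1.5 in either fit. *HMMR*, a spindle protein, read 8.42, 8.18 and 8.22 against 8.10, 7.55 and 8.06, without overlap. The difference was -0.37 ± 0.180 (adjusted p = 0.999, limma). *KIF11* and *HMMR* were the lower ends of a list in which 17 of 21 genes were lower in RWPE1-183FC on average, with a median of -0.09. Over all genes 7142 of 14884 were lower. The median difference of the mitotic genes was -0.004, -0.25 and -0.09 in replicates 1, 2 and 3, so it was widest between the replicate 2 arrays.

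The low replicate 2 was shared by the mitotic genes. All 21 were lower in it on average, with a median of -0.55, and 18 of the 21 were lowest in both groups. The G1/S regulators had a median of -0.25 with 14 of 18 lower, and the further replication factors -0.26 with 7 of 9 lower. *RRM2B*, the p53-induced counterpart of *RRM2*, was higher in replicate 2 by 0.78 and 0.90, and was chosen for mention after its values were seen. Whether the lists differed from one another was not tested.

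**Figure D4:**
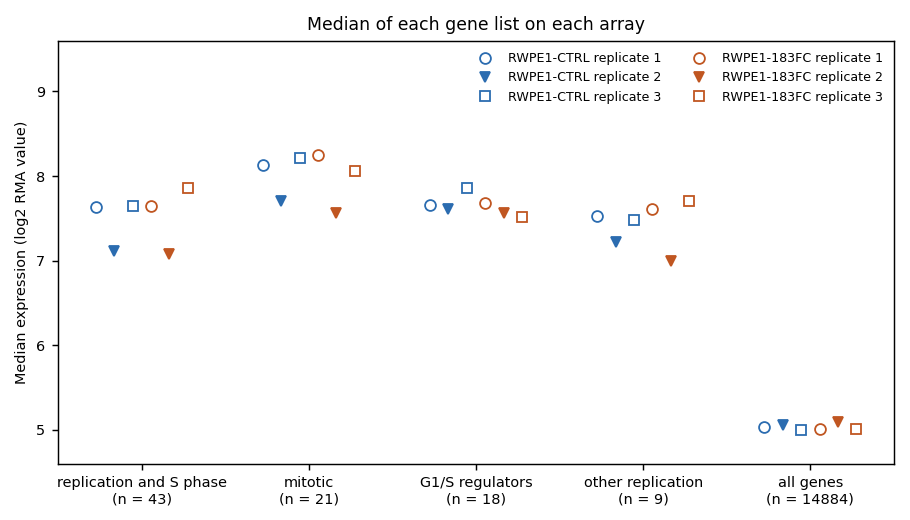
Median log2 RMA value of each gene list on each of the 6 arrays, RWPE1-CTRL in blue and RWPE1-183FC in orange, replicate 2 as filled triangles, with the number of genes under each list. The members stand at 7.11 in RWPE1-CTRL replicate 2 and at 7.64 and 7.65 in replicates 1 and 3, the mitotic genes are also lowest in replicate 2 of each group, and the median of all genes stays near 5.

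Markers of the labelled cell type were read from the same arrays, where their symbol stood in the annotation used. Of 8 basal epithelial markers 3 were measured. *KRT5* averaged 9.61 and 9.41 in RWPE1-CTRL and RWPE1-183FC and *KRT14* 9.47 and 9.38, while *KRT15* was called higher in RWPE1-183FC, with 4.83, 4.45 and 4.21 against 5.59, 5.48 and 5.32 (adjusted p = 0.00633, limma). In the fit over all genes the adjusted p of *KRT15* was 0.18 (limma). The luminal markers *KLK3* and *KLK2*, 2 of the 4 measured of 9, averaged 3.85 to 4.37 in each group, near the median of all clusters. The other 2, the keratins *KRT8* and *KRT18*, averaged 5.76 and 10.5 in RWPE1-CTRL and 6.04 and 10.5 in RWPE1-183FC. Of 9 markers of leukocytes, endothelium and fibroblasts 3 were measured, with *PECAM1* and *DCN* between 2.45 and 2.99 on average and *CD68* at 9.43 and 9.24.

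Of these 10 markers *KRT14*, *KRT18* and *DCN* were lowest in replicate 2 of both groups. *KRT14* was lower by 0.97 and 1.01 in RWPE1-CTRL and RWPE1-183FC, *KRT18* by 0.05 and 0.07 and *DCN* by 0.06 and 0.44. *KRT8* gave -0.68 and -0.09, and *KRT5* -0.17 and 0.07. *CD68* was higher in replicate 2 by 0.66 and 0.65. The median of the 3 basal markers ran from 8.82 to 9.84 over the RWPE1-CTRL arrays and from 8.70 to 9.47 over RWPE1-183FC. The part of these genes in the low replicate 2 was not tested.

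The comparison between the groups was also made with both replicate 2 arrays left out. It called 122 genes and 0 members, and the median difference of the members was 0.01. With only the RWPE1-CTRL replicate 2 array left out the median became -0.19, and with only that of RWPE1-183FC left out it became 0.16. The low arrays, 1 in each group, thus weighed on both sides of the comparison.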

How the data were processed

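Total RNA of 6 RWPE-1 cultures was hybridised to Affymetrix Human Gene ST arrays. The deposited values are log2 intensities that the authors had normalised with RMA in Partek, per the labels (versions and genome build not given in the sources used here). The paper's methods instead name the R package oligo for RMA. Arrays give no read depth, and precision is limited by the 3 arrays per group. Of 53617 clusters, 16098 carried 1 annotated symbol and gave 14884 genes by the brightest cluster per symbol. All 43 measured members matched RefSeq by Entrez number. Groups and replicate numbers came from the sample titles.

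Groups were compared with limma 3.58.1 in R 4.3.3 and Benjamini-Hochberg adjustment. Following the study's methods, genes below the 20th percentile of median or variance were removed (9583 kept) and calls needed a false discovery rate under 0.2 and a fold change over 1.5. Errors and intervals came from the same fit over all genes. The script was tested on simulated data. Same-numbered arrays of the 2 groups deviated together over genes for replicates 2 and 3 (r of 0.511 and 0.29). For replicate 1, r was 0.101, below the highest value between unlike numbers, 0.214. The numbers were treated as pairs in an alternative fit. This pairing comes from the data and not from the labels, which name no shared day or batch.

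Members, gene lists and motifs were chosen with earlier results of these data known. Array values are printed for members that were called or did not overlap, the 2 of each role with the largest group difference, the 8 with the largest replicate 2 difference, and the 2 leading genes of each other list. Alternatives covered arrays left out, pairing, normalisation, cluster choice, filters, array weights, the variance prior and thresholds. Figures were drawn with matplotlib 3.10.9.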

Additional observations from a re-analysis of the deposited data

How the results depend on the processing

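The count of members called was 0, and of genes called in the other cell cycle lists 0, under every alternative run. The 14 members whose group difference is given were uncalled in all 14 alternatives, with a smallest adjusted p of 0.51 (limma). The fit that joins the filter and the replicate block gave 0.405. The count over all genes, 90, was more sensitive. Pairing by replicate number (the replicate block) raised it to 162 and weighting the arrays to 192. Dropping the filter lowered it to 36, filtering by median alone to 37, and a false discovery rate under 0.05 to 51. Leaving out 1 array gave 43 to 152 calls. The first RWPE1-CTRL array, when omitted, left 58, and omitting replicate 1, 2 or 3 of RWPE1-183FC left 43, 152 or 57. The cause was not tested. The median replicate 2 difference of the members, -0.53, became -0.59 when each array was centred on the median of all genes. For single genes only the 14 members above were run, and among them the group difference of 8 changed sign when 1 array was omitted, with a range from -0.54 to 0.0052 for *BRIP1*, -0.46 to 0.054 for *CLSPN*, -0.41 to 0.14 for *DUT*, -0.46 to 0.12 for *E2F8*, -0.52 to 0.094 for *EXO1*, -0.72 to 0.16 for *MCM10*, -0.38 to 0.040 for *MCM7* and -0.24 to 0.53 for *RRM2*. It kept its sign for the other 6 but ranged from -0.61 to -0.18 for *ASF1B*, -0.29 to -0.036 for *CDC6*, 0.19 to 0.54 for *E2F7*, 0.04 to 0.53 for *GINS1*, 0.21 to 0.50 for *PCNA* and -0.35 to -0.00089 for *SLBP*. The replicate block cannot alter a difference in this balanced design, so the members' median is -0.01 by construction, and it added no call among the members.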
